A study of Mus musculus with 12 samples.

Results

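The genes described here are 40 genes of the MYC network and of ribosome biogenesis, out of 55487 gene identifiers in each of the 2 deposited count tables. They were taken from a list of gene symbols, matched by identifier through GENCODE mouse release M21, and each was found in both tables. The list holds 6 genes of the MYC network, 5 of RNA polymerase I, 4 of the box C/D and 5 of the box H/ACA small nucleolar ribonucleoproteins, 5 coding for abundant nucleolar proteins, 4 of small subunit processing and 11 of large subunit processing. Each passed the filter on low counts in both comparisons, and the material was mouse CD8+ T cells of the OT-1 line, which carry a transgenic T cell receptor for an ovalbumin peptide. There were 12 samples in 4 groups, with 3 in each. The samples named Female and Male came from the spleens of mice of that sex, after 3 days of activation with IL2 and beads carrying anti-CD3/CD28. WT and KD samples were another batch of CD8+ T cells, all male. KD cells were electroporated with Cas9 and guide RNA to lower Kdm5d, a Y-linked histone H3 lysine demethylase, and WT cells with guide RNA and no Cas9, and both were then cultured for 3 days. Cas9 was thus present in KD and absent in WT, so its effects and those of lower Kdm5d cannot be told apart. The number of mice or cultures is not stated in the labels, so p-values measure the spread between these samples, which may be technical. The ages of the mice and further alleles are not given there either.

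MYC is a transcription factor that binds DNA as a dimer with MAX, at E-boxes such as CACGTG, and is induced when a T cell is activated. MXD proteins and MNT also dimerize with MAX and bring repressor complexes to the same sites. Ribosome biogenesis, one of the best known outputs of MYC, starts in the nucleolus, where RNA polymerase I transcribes the rRNA precursor. Small nucleolar RNPs guide its methylation and pseudouridylation, and processing factors then cut, fold and export the small and large subunits. Growing T cells make many ribosomes, so these genes are commonly read as a mark of cell growth.

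The E-box letters were looked up in the members' promoters because CACGTG is the site shared by MYC-MAX and MXD-MAX dimers. RefSeq promoter windows (GRCm38.p6, 250 bases before to 50 after a start site) were matched for 34 of the 40 genes, all but Myc, Fbl, Npm1, Bop1, Rrs1 and Rrp12. CACGTG, which reads the same on both strands and was searched with any overlap allowed, was present in 9 of the 42 windows of these genes (21.4%) and in 2349 of all 32851 windows (7.15%). The 9 genes were Max, Mnt, Mxd4, Rrn3, Mybbp1a, Utp20, Wdr43, Nop2 and Pes1. Of these, 3 were among the 5 matched MYC network genes. The windows were not matched for base composition, and the difference in share was not tested. None of the windows of the 3 matched box C/D or the 5 box H/ACA genes held these letters, which says nothing of binding elsewhere. Only Mxd4, Mnt, Rrn3 and Nop2 held a whole copy in the 250 bases before the start site, so those 4 stretches are shown, 5′ to 3′ on the gene's strand with CACGTG in capitals. They lie at chr5:34187711-34187960 (minus strand), chr11:74830674-74830923 (plus), chr16:13780449-13780698 (plus) and chr6:125131633-125131882 (plus), and Rrn3 holds 2 copies.
Mxd4: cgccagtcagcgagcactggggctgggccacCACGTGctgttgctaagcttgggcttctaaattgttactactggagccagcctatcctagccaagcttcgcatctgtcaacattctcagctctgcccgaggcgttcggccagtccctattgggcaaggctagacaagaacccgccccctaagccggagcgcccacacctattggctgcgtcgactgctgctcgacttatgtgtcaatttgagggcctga
Mnt: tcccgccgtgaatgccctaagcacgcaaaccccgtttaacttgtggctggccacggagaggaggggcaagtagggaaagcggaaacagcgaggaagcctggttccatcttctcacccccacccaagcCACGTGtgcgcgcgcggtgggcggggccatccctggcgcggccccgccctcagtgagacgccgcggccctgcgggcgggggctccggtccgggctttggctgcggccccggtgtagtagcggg
Rrn3: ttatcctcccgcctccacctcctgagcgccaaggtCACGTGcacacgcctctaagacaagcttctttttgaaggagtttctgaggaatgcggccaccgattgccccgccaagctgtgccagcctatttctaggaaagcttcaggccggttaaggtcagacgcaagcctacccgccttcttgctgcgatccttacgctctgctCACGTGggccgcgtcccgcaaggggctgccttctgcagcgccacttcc
Nop2: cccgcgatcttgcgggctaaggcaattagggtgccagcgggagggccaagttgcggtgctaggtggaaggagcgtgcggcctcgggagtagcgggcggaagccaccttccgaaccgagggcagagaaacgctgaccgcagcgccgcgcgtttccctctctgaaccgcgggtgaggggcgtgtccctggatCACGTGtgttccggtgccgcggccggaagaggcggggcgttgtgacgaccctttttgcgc

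The total count per sample ranged from 78748647 to 110803318. Kdm5d was at 0 to 2 counts in the Female samples, 50.9, 49.5 and 52.2 CPM in the Male samples, 48.4, 51.9 and 52.4 CPM in the WT samples and 21.4, 21.8 and 22.9 CPM in the KD samples, where its mean was 43.3% of the WT mean. Levels are given as CPM, counts per 1000000 counts of a library after TMM scaling, so they are relative to the rest of the library, and in bulk RNA fewer cells of a type and less RNA per cell cannot be told apart. The cells carried the CD8 T cell markers: the 10 identity genes summed to 2606 to 2635 CPM (Female), 2563 to 2588 (Male), 3001 to 3053 (WT) and 2628 to 2701 (KD). Of these 10 genes, 2 were higher and 5 lower in Male, and 1 was higher and 7 were lower in KD. Among genes at least as abundant as the least abundant member, 41.6% were lower in Male and 35.1% in KD. The 3 CD4 T cell markers summed to 85.6 to 88.8 CPM (Female), 50.9 to 54.7 (Male), 42.3 to 44.8 (WT) and 39.8 to 42.0 (KD), mostly from Zbtb7b, and Cd4 itself held 14 to 19 counts in Female and 0 in Male. The 4 NK cell markers summed to 75.6 to 79.6 CPM in Female and 158 to 168 in Male, and to 233 to 240.0 in WT and 225 to 233 in KD, mostly from Eomes and Klrk1, which CD8 cells also express. The 5 B cell markers stayed between 3.81 and 6.49 CPM, with Ms4a1 at 0 in all samples, the 7 myeloid markers between 0.396 and 1.61 CPM, with S100a8 and S100a9 at 0, and the 5 erythroid markers between 0.446 and 1.37 CPM, with Hbb-bs, Hbb-bt and Hba-a1 at 0. The part of cell makeup in the results below was not tested.

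Male cells had more mRNA of nearly the whole ribosome biogenesis list than Female cells, and KD cells more than WT cells, with a smaller median difference in the second comparison, though the comparisons were not tested against each other. In Male against Female, 32 of the 34 genes outside the MYC network were higher, against 23.5% of all tested genes, with Mybbp1a (fold 2.32), Nolc1 (2.01) and Gnl3 (1.99) in front, 1 was lower (Polr1c) and Npm1 was not called. Their median log2 fold change was 0.59, a fold of 1.50, where the median of all 20208 tested genes was 0.011. In KD against WT, 26 of the 34 were higher, against 16.8% of all tested genes, with Utp20 (fold 1.53) and Rrp12 (1.37) in front, 1 was lower (Polr1c again) and 7 were not called. Their median log2 fold change was 0.20, a fold of 1.15, against 0.012 over the 20413 tested genes. Summed over the 34 genes, the level was 3484 to 3549.7 CPM in Female and 4751 to 4804 CPM in Male samples, and 5137 to 5248 CPM in WT and 6124 to 6186 CPM in KD samples. Neither pair of groups overlapped.

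Both comparisons moved much of the transcriptome. A gene was called at an adjusted p under 0.05 in edgeR's quasi-likelihood test, adjusted by Benjamini-Hochberg over all tested genes. In Male against Female the calls took in 49.8% of the tested genes (23.5% higher, 26.3% lower), and 38 of the 40 members were called, 35 higher and 3 lower. In KD against WT they took in 35.1% (16.8% higher, 18.4% lower), and 33 of the 40 members were called, 29 higher and 4 lower. Abundant genes are called more often, so the share was also taken over genes at least as abundant as the least abundant member, a background added after seeing the data. It was 77.0% in Male against Female (35.4% higher, 41.6% lower) and 60.1% in KD against WT (25.0% higher, 35.1% lower). The members' total share called in Male against Female thus stood above a high background, and the split between higher and lower differed more from it than the total did. The 3 values of each group did not overlap for 38 members in Male against Female (35 higher, 3 lower) against 58.3% of tested genes (28.6% higher, 29.7% lower). For KD against WT they did not overlap for 32 members (28 higher, 4 lower) against 46.8% of tested genes (23.2% higher, 23.6% lower).

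**Figure D1:**
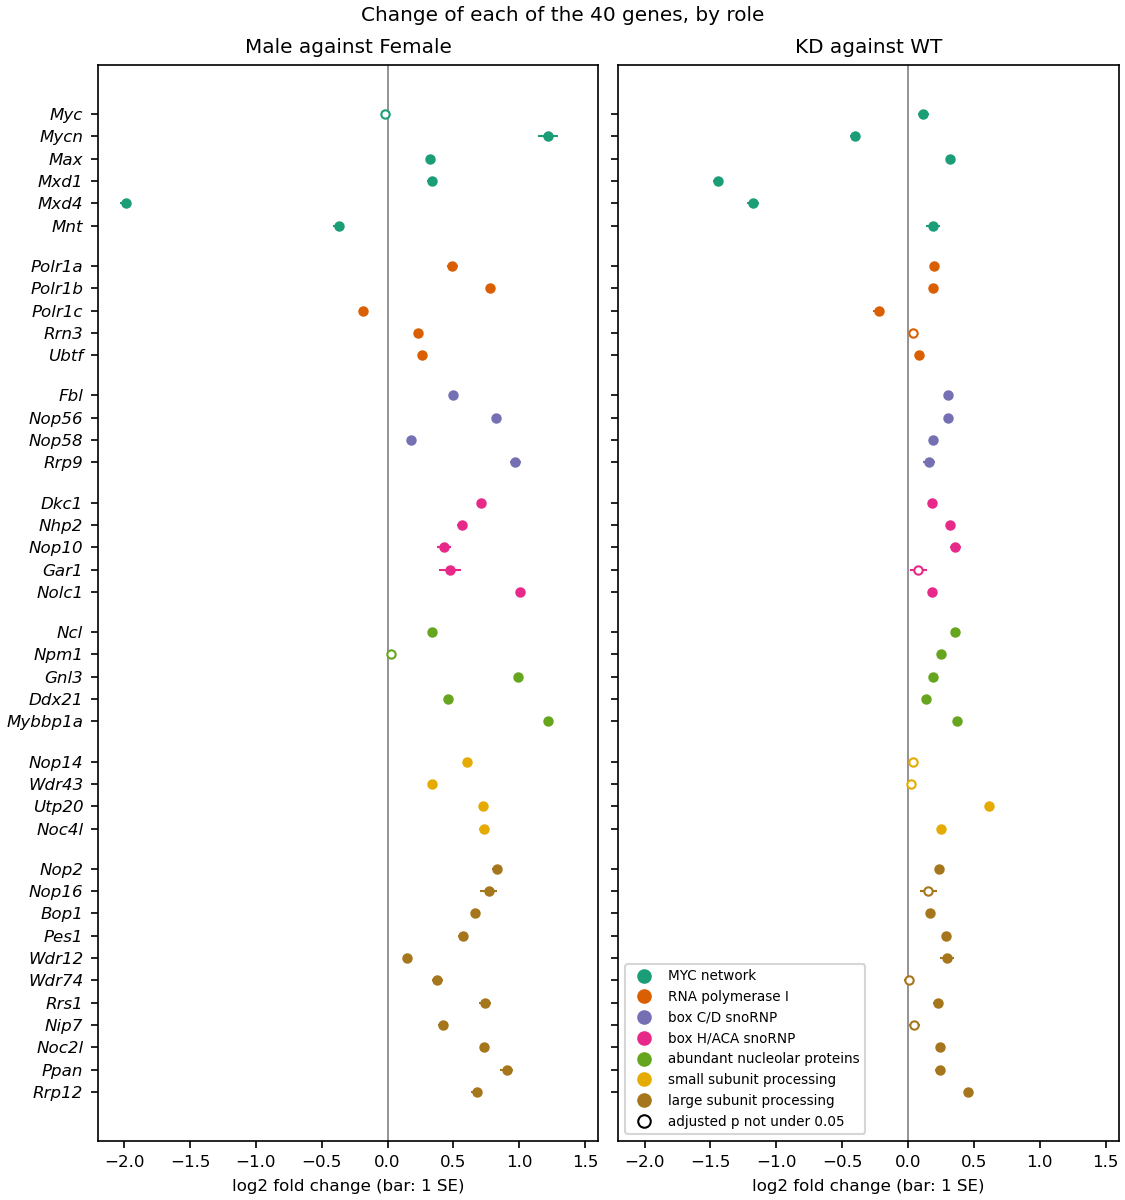
Log2 fold change of each of the 40 genes, by role, in Male against Female (left) and KD against WT (right). Points are edgeR estimates, bars are 1 SE, and open points are genes with an adjusted p not under 0.05. Most ribosome biogenesis genes lie to the right of 0 in both panels, Polr1c lies to the left in both, and MYC network genes lie on both sides.

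In the MYC network, Myc transcript did not differ detectably between the sexes, while the genes for its partner and its competitors did. Max was higher in Male and in KD cells, and Mxd4 was lower in both, to 0.252 of the Female level and 0.442 of the WT level. Mxd1 and Mycn were above Female in Male cells but below WT in KD cells, and Mnt went the reverse way.

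Myc (ENSMUSG00000022346, chr15:61985391-61990374 in GRCm38) codes for the MYC protein itself. Its level was 225, 219 and 217 CPM in the Female samples and 212, 226 and 214 CPM in the Male samples, and the groups overlapped (edgeR log2 fold change -0.021, SE 0.029, adjusted p 0.594, 95% interval -0.086 to 0.044). It was 211, 203 and 202 CPM in WT and 210.1, 238 and 219 CPM in KD (edgeR log2 fold change 0.12, SE 0.040, adjusted p 0.0479). Here too the groups overlapped, since KD replicate 1 lay below WT replicate 1. The KD call was lost when any of 5 of the 6 libraries was left out, with adjusted p values up to 0.155, and the log2 fold change fell to 0.064 without KD replicate 2. Per kilobase of annotated exon, Myc ranked 2 of the 40 genes in Female cells at 81.1 CPM and 3 of 40 in Male at 80.0 and WT at 75.5, and 5 of 40 in KD at 81.8, with Npm1 at the top in every group. Per kilobase of a gene's shortest principal (APPRIS) transcript, Myc ranked 2 in Female, Male and WT and 3 in KD, so the ranks depend on the length used.

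Mycn (ENSMUSG00000037169, chr12:12936093-12941914), the MYC paralogue best known from the embryo and neural tumours, ranked 39 of the 40 genes per kilobase in Female cells. Its level was 10.9, 9.24 and 9.52 CPM in Female and 24.4, 21.7 and 22.9 CPM in Male samples (edgeR log2 fold change 1.22, SE 0.074, adjusted p 2.99e-07). All Male values lay above all Female values. In the electroporated cells it was 62.5, 63.7 and 63.4 CPM in WT and 46.2, 46.8 and 50.2 CPM in KD (edgeR log2 fold change -0.41, SE 0.038, adjusted p 1.85e-05), with all KD values below all WT values.

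Max (chr12:76937269-76962201), the partner that MYC, MXD and MNT proteins share, was at 84.6, 85.4 and 86.5 CPM in Female and 105, 110.1 and 105 CPM in Male samples (edgeR log2 fold change 0.32, SE 0.027, adjusted p 3.20e-06). It was at 121, 121 and 119 CPM in WT and 147, 156 and 149 CPM in KD (edgeR log2 fold change 0.32, SE 0.028, adjusted p 9.37e-06). Neither pair of groups overlapped.

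Mxd4 (ENSMUSG00000037235, chr5:34173883-34187720, minus strand), which codes for a MAX-binding repressor of the MXD family and holds the E-box shown above, had the largest fall among the 40 genes in Male against Female. It was at 63.0, 62.3 and 63.9 CPM in the Female samples and 15.2, 16.8 and 15.7 CPM in the Male samples (edgeR log2 fold change -1.99, SE 0.041, adjusted p 1.75e-10). In WT it was at 62.7, 61.9 and 58.7 CPM, near the Female level although the WT cells were male, and in KD at 26.2, 28.5 and 26.3 CPM (edgeR log2 fold change -1.18, SE 0.045, adjusted p 3.46e-08). Levels in different tables were normalized separately, so that nearness was not tested. The lower group lay well below the other in each comparison. Gm42846, an antisense gene over Mxd4, held 0 counts in every sample.

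Mxd1 (ENSMUSG00000001156, chr6:86647042-86669161), the founding MXD repressor, went opposite ways. It was at 37.2, 37.2 and 37.8 CPM in Female and 45.1, 47.5 and 49.0 CPM in Male samples, a modest rise with no overlap (edgeR log2 fold change 0.34, SE 0.037, adjusted p 2.58e-05). It was at 74.5, 72.3 and 71.9 CPM in WT and 26.3, 26.6 and 27.6 CPM in KD, the largest fall of the 40 genes in that comparison, to 0.368 of the WT level (edgeR log2 fold change -1.44, SE 0.035, adjusted p 3.43e-09). Mnt (chr11:74830920-74845725), a more broadly expressed MAX-binding repressor, was at 58.1, 62.7 and 62.3 CPM in Female and 47.9, 48.4 and 45.1 CPM in Male samples (edgeR log2 fold change -0.37, SE 0.040, adjusted p 2.07e-05). It was at 44.4, 45.3 and 42.2 CPM in WT and 48.2, 54.3 and 47.9 CPM in KD (edgeR log2 fold change 0.19, SE 0.053, adjusted p 0.0180). Neither pair of Mnt groups overlapped, but without WT replicate 3 the KD rise was 0.16 with an adjusted p of 0.0793.

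Set per kilobase of annotated exon within each sample, Myc stood at 10.6 to 11.2 times the Mxd4 level in Female and 42.1 to 43.5 times in Male samples. The ratio was 10.2 to 10.7 in WT and 25.0 to 26.1 in KD samples. Relative to Mxd1, Myc stood at 14.9 to 15.8 times (Female), 11.4 to 12.4 (Male), 7.29 to 7.37 (WT) and 20.7 to 23.2 (KD). The ratio to Mxd4 was thus higher in Male and in KD samples, and the ratio to Mxd1 was lower in Male and higher in KD samples. These ratios follow from the separate values above, their size depends on the gene lengths used, and they were not tested.

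**Figure D2:**
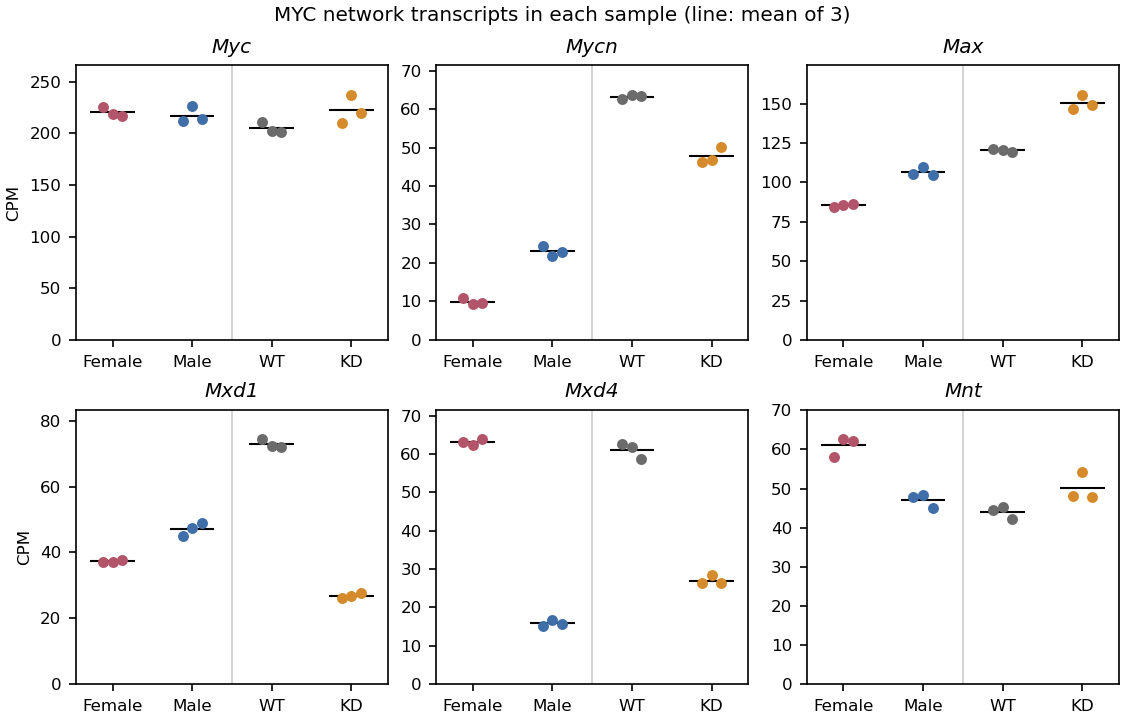
CPM of the 6 MYC network genes in every sample, each panel with its own axis from 0. Points are samples, lines are means of 3, and the grey line parts the 2 separately normalized tables. Mxd4 is low in Male (15.2 to 16.8 CPM) and in KD (26.2 to 28.5 CPM), while Myc spans a like range in the 4 groups.

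Counts by role, here and below, were not tested as sets. Among genes as abundant as the members, 35.4% were higher and 41.6% lower in Male, and 25.0% and 35.1% in KD. Groups did not overlap for 58.3% of all tested genes in Male against Female and 46.8% in KD against WT. Of the RNA polymerase I genes, 4 of 5 rose and 1 fell in Male cells (median log2 fold change 0.26). In KD cells 3 rose, 1 fell and 1 was not called (median 0.084). The core catalytic subunits rose in both, and Polr1c fell in both. Polr1a, the largest subunit, was at 83.5, 93.2 and 95.8 CPM in Female and 128, 127 and 128 CPM in Male samples (edgeR log2 fold change 0.49, SE 0.044, adjusted p 5.46e-06). It was at 136, 137 and 134 CPM in WT and 156, 156 and 155 CPM in KD samples (edgeR log2 fold change 0.20, SE 0.022, adjusted p 5.76e-05), with no overlap in either pair. Polr1b, the subunit that forms the active centre with it, was at 40.7, 39.1 and 38.4 CPM in Female and 66.3, 68.6 and 68.2 CPM in Male samples (edgeR log2 fold change 0.78, SE 0.032, adjusted p 1.79e-08). It was at 92.3, 91.1 and 92.1 CPM in WT and 103, 105 and 106 CPM in KD samples (edgeR log2 fold change 0.19, SE 0.026, adjusted p 0.000212), again without overlap. Polr1c, a subunit that polymerases I and III share, went the other way, from 60.2, 61.0 and 63.4 CPM in Female to 53.7, 55.1 and 53.8 CPM in Male samples (edgeR log2 fold change -0.18, SE 0.030, adjusted p 0.000455). It went from 43.6, 41.1 and 43.9 CPM in WT to 35.4, 37.4 and 37.3 CPM in KD samples (edgeR log2 fold change -0.22, SE 0.041, adjusted p 0.00177), and it was the sole one of the 34 ribosome biogenesis genes called lower in each comparison. Rrn3, the factor that brings the polymerase to the rRNA promoter and the gene with 2 E-boxes above, had means of 83.8 ± 2.40 CPM (SD, n = 3) in Female and 98.5 ± 3.57 CPM in Male (edgeR log2 fold change 0.23, SE 0.033, adjusted p 0.000169). Ubtf, which binds along the rRNA genes, had a log2 fold change of 0.26 in Male (edgeR adjusted p 5.69e-06) and 0.084 in KD (edgeR adjusted p 0.0278). The KD call of Ubtf was lost without KD replicate 2 (adjusted p 0.0686), WT replicate 1 (0.0965) or WT replicate 2 (0.100).

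The 4 genes of box C/D RNPs, which place 2′-O-methyl groups on rRNA, rose in both comparisons, with medians of 0.66 and 0.25 on the log2 scale. Nop56, a core scaffold protein, was at 117, 113 and 119 CPM in Female and 207, 205 and 205 CPM in Male samples (edgeR log2 fold change 0.82, SE 0.024, adjusted p 1.68e-09). It was at 252, 243 and 247 CPM in WT and 311, 303 and 304 CPM in KD samples (edgeR log2 fold change 0.31, SE 0.022, adjusted p 2.41e-06). Both rises were wide of the spread between replicates. Fbl, fibrillarin, the methyltransferase, was at 63.5, 57.0 and 61.0 CPM in Female and 85.5, 85.3 and 85.7 CPM in Male samples (edgeR log2 fold change 0.50, SE 0.037, adjusted p 1.16e-06). It was at 75.9, 73.2 and 74.3 CPM in WT and 92.1, 91.0 and 92.7 CPM in KD samples (edgeR log2 fold change 0.30, SE 0.028, adjusted p 1.37e-05), without overlap. Nop58, the scaffold partner of Nop56, rose the least of the 4 in Male cells, from 145, 146 and 148 CPM to 167, 163 and 165 CPM (edgeR log2 fold change 0.18, SE 0.022, adjusted p 6.13e-05). It rose from 187, 177 and 180.0 CPM in WT to 208, 203 and 210.4 CPM in KD (edgeR log2 fold change 0.19, SE 0.026, adjusted p 0.000268). Rrp9, a protein of the U3 RNP used in early cleavage of the precursor, rose the most of the 4 in Male cells, from 18.4, 18.1 and 17.2 CPM to 34.0, 35.8 and 35.3 CPM (edgeR log2 fold change 0.97, SE 0.043, adjusted p 2.82e-08). In KD it was at 49.8, 55.0 and 49.9 CPM against 45.7, 46.1 and 46.8 CPM in WT (edgeR log2 fold change 0.16, SE 0.043, adjusted p 0.0166), with an adjusted p of 0.0580 without WT replicate 1.

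The 5 genes of box H/ACA RNPs, which convert uridine to pseudouridine, all rose in Male cells (median 0.56), and 4 rose in KD cells (median 0.18). Dkc1, dyskerin, is the pseudouridine synthase and lies on the X chromosome (chrX:75095854-75109777). It was at 70.6, 69.0 and 73.3 CPM in Female and 117, 118 and 114 CPM in Male samples (edgeR log2 fold change 0.71, SE 0.029, adjusted p 1.53e-08). It was at 135, 138 and 138 CPM in WT and 155, 153 and 159.9 CPM in KD samples (edgeR log2 fold change 0.18, SE 0.025, adjusted p 0.000234). The X-linked gene was thus higher in the sex with a single X, by a size within the range of its autosomal partners. Nhp2, a core protein of the complex, was at 34.9, 35.1 and 35.5 CPM in Female and 54.1, 50.3 and 51.5 CPM in Male samples (edgeR log2 fold change 0.56, SE 0.035, adjusted p 3.69e-07). It was at 62.5, 61.2 and 62.0 CPM in WT and 76.0, 76.8 and 79.1 CPM in KD samples (edgeR log2 fold change 0.32, SE 0.030, adjusted p 1.57e-05). Nop10, the small core protein beside dyskerin, was at 16.8, 16.1 and 16.1 CPM in Female and 23.6, 21.2 and 21.1 CPM in Male samples (edgeR log2 fold change 0.43, SE 0.055, adjusted p 8.49e-05). It was at 30.3, 29.0 and 30.4 CPM in WT and 37.8, 39.3 and 38.0 CPM in KD samples (edgeR log2 fold change 0.36, SE 0.039, adjusted p 4.43e-05). No pair of groups of these 3 genes overlapped. Nolc1, a chaperone of these RNPs that moves between nucleolus and Cajal body, had the largest rise of the 5 in Male cells, from 44.7, 45.6 and 44.0 CPM to 86.7, 91.2 and 91.4 CPM (edgeR log2 fold change 1.00, SE 0.030, adjusted p 1.80e-09). It rose from 134, 132 and 131 CPM in WT to 154, 149.6 and 147 CPM in KD (edgeR log2 fold change 0.18, SE 0.025, adjusted p 0.000268). Gar1, the remaining core protein, rose in Male cells (edgeR log2 fold change 0.47, SE 0.083, adjusted p 0.000830).

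Among the abundant nucleolar proteins, 4 of 5 rose in Male cells (median 0.46) and 5 of 5 in KD cells (median 0.25). Mybbp1a, a MYB-binding protein of the nucleolus that associates with polymerase I, had the largest rise of the 34 ribosome biogenesis genes in Male cells. It was at 135, 139 and 133 CPM in Female and 318, 311 and 317 CPM in Male samples (edgeR log2 fold change 1.22, SE 0.023, adjusted p 8.30e-11). It was at 417, 407 and 406 CPM in WT and 519.8, 544 and 531 CPM in KD samples (edgeR log2 fold change 0.37, SE 0.021, adjusted p 5.14e-07). Every Male value lay far above every Female one, and the KD values stood above WT by less. Ncl, nucleolin, which binds nascent rRNA, was at 545, 515 and 543 CPM in Female and 668, 674 and 681 CPM in Male samples (edgeR log2 fold change 0.34, SE 0.023, adjusted p 6.65e-07). It was at 695, 675 and 686 CPM in WT and 896, 854 and 883 CPM in KD samples (edgeR log2 fold change 0.36, SE 0.020, adjusted p 5.19e-07), so its 2 rises were of like size. Gnl3, nucleostemin, a GTPase of dividing cells, was at 40.4, 38.1 and 39.0 CPM in Female and 78.4, 79.8 and 75.4 CPM in Male samples (edgeR log2 fold change 0.99, SE 0.034, adjusted p 4.28e-09). It was at 103, 100.1 and 98.4 CPM in WT and 112, 116 and 117 CPM in KD samples (edgeR log2 fold change 0.19, SE 0.028, adjusted p 0.000396). Npm1, nucleophosmin, a chaperone of ribosome assembly, had the highest level per kilobase of the 40 genes in every group. Its means were 851 ± 19.0 CPM (SD, n = 3) in Female and 868 ± 22.4 CPM in Male (edgeR log2 fold change 0.027, SE 0.022, adjusted p 0.356, 95% interval -0.023 to 0.077), and the groups overlapped. They were 704 ± 10.1 CPM in WT and 839 ± 23.4 CPM in KD (edgeR log2 fold change 0.25, SE 0.022, adjusted p 9.07e-06), with no overlap. Ddx21, an RNA helicase of the nucleolus, had log2 fold changes of 0.46 in Male and 0.13 in KD (edgeR adjusted p 2.82e-08 and 0.000780).

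All 4 genes of small subunit processing rose in Male cells (median 0.67) and 2 of 4 rose in KD cells (median 0.14). Of genes as abundant as the members, 25.0% were higher in KD, and with 4 genes nothing is read from the KD count. Utp20, a very large scaffold protein of the particle that cuts the precursor, was at 55.5, 59.7 and 57.7 CPM in Female and 96.5, 96.5 and 92.8 CPM in Male samples (edgeR log2 fold change 0.73, SE 0.032, adjusted p 2.63e-08). It was at 129.9, 129.5 and 128 CPM in WT and 198, 193 and 202 CPM in KD samples (edgeR log2 fold change 0.61, SE 0.024, adjusted p 3.91e-08), the largest KD rise of the 40 genes. Noc4l, which works with Nop14 in export and maturation of the small subunit, was at 44.7, 46.9 and 43.9 CPM in Female and 75.0, 73.4 and 76.0 CPM in Male samples (edgeR log2 fold change 0.73, SE 0.032, adjusted p 2.97e-08). It was at 90.6, 89.0 and 91.4 CPM in WT and 103, 109.8 and 109.9 CPM in KD samples (edgeR log2 fold change 0.25, SE 0.032, adjusted p 0.000138). Neither gene's groups overlapped. In Male cells Nop14 rose by 0.61 and Wdr43, a processome protein, by 0.33 on the log2 scale (edgeR adjusted p 2.68e-07 and 3.37e-06).

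All 11 genes of large subunit processing rose in Male cells (median 0.68) and 8 of 11 rose in KD cells (median 0.23). Noc2l, which accompanies the early large subunit precursor and is also known as an inhibitor of histone acetyltransferases, was at 157, 156 and 155 CPM in Female and 258, 260.1 and 257 CPM in Male samples (edgeR log2 fold change 0.73, SE 0.020, adjusted p 9.86e-10). It was at 260.5, 264 and 257 CPM in WT and 309, 318 and 299 CPM in KD samples (edgeR log2 fold change 0.25, SE 0.025, adjusted p 3.49e-05). Rrp12, a factor of subunit maturation and export, was at 32.2, 29.7 and 32.2 CPM in Female and 51.1, 50.5 and 48.9 CPM in Male samples (edgeR log2 fold change 0.68, SE 0.040, adjusted p 2.49e-07). It was at 67.6, 63.8 and 66.5 CPM in WT and 87.7, 92.3 and 92.1 CPM in KD samples (edgeR log2 fold change 0.46, SE 0.034, adjusted p 3.47e-06), the next largest KD rise after Utp20. Nop2, an rRNA cytosine methyltransferase with an E-box shown above, was at 44.9, 42.1 and 41.5 CPM in Female and 73.4, 76.9 and 77.8 CPM in Male samples (edgeR log2 fold change 0.83, SE 0.037, adjusted p 3.33e-08). It was at 105, 104 and 105 CPM in WT and 123, 126 and 119 CPM in KD samples (edgeR log2 fold change 0.23, SE 0.028, adjusted p 9.76e-05). The groups of these 3 genes did not overlap in either comparison. Pes1, Bop1 and Wdr12 form one complex needed to process the large subunit rRNA. Pes1 was at 48.9, 52.3 and 47.9 CPM in Female and 74.4, 71.7 and 75.5 CPM in Male samples (edgeR log2 fold change 0.57, SE 0.037, adjusted p 5.02e-07), and at 77.0, 73.6 and 77.2 CPM in WT and 92.9, 96.4 and 89.8 CPM in KD (edgeR log2 fold change 0.29, SE 0.035, adjusted p 8.94e-05). Bop1 rose by 0.66 and 0.17, and Wdr12 by 0.15 and 0.30 in Male and KD on the log2 scale, so Wdr12 had the smallest rise of the 11 genes in Male cells. Of the others called in both, Ppan, a factor of 60S assembly, rose by 0.90 and 0.25, and Rrs1, which helps to bring in the 5S RNP, by 0.74 and 0.22.

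**Figure D3:**
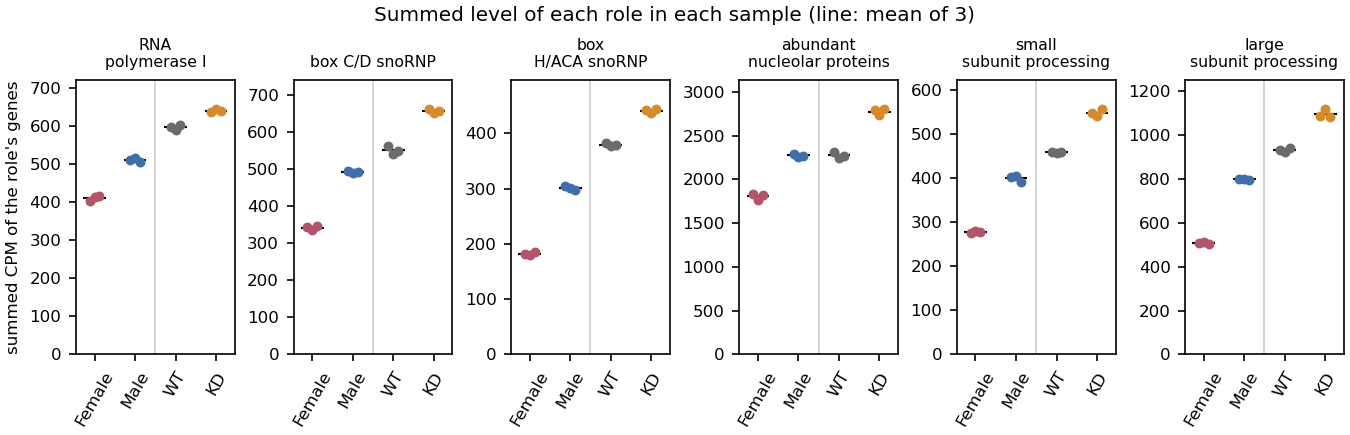
Summed CPM of the genes of each ribosome biogenesis role in every sample, each panel with its own axis from 0. Points are samples, lines are means of 3, and the grey line parts the 2 separately normalized tables. In every role each Male sample lies above each Female sample and each KD sample above each WT sample.

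The summed levels by role gave the same picture in every sample. The box H/ACA genes summed to 179 to 185 CPM in Female and 298 to 304 CPM in Male samples, and to 377 to 382 in WT and 436 to 444 in KD. Large subunit processing genes summed to 502 to 511 CPM in Female and 795 to 802 in Male, and to 926 to 940.2 in WT and 1085 to 1119.6 in KD. RNA polymerase I genes summed to 403 to 416 CPM in Female and 505 to 516 in Male, and to 591 to 604 in WT and 637 to 645 in KD. A role's groups were apart in each of these sums, while the 6 MYC network genes together summed to 476 to 479 CPM in Female and 449.6 to 471 in Male, lower rather than higher. They summed to 558 to 576 in WT and 504 to 549.5 in KD.

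The 7 genes that rose in Male cells and were not called in KD cells were Rrn3, Gar1, Nop14, Wdr43, Nop16, Wdr74 and Nip7. Their KD estimates were all above 0 and their 95% intervals, on the log2 scale, were -0.023 to 0.10 for Rrn3, -0.062 to 0.22 for Gar1, -0.037 to 0.11 for Nop14 and -0.031 to 0.072 for Wdr43. For the large subunit factors they were 0.0096 to 0.30 for Nop16, -0.076 to 0.085 for Wdr74 and -0.049 to 0.15 for Nip7. Gar1 and Nop16 thus had room for a rise as large as the median of the 34 genes (0.20), and the other 5 intervals ended below it. In Male against Female these 7 genes rose by 0.23 (Rrn3), 0.47 (Gar1), 0.61 (Nop14), 0.33 (Wdr43), 0.77 (Nop16), 0.38 (Wdr74) and 0.42 (Nip7).

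The 2 comparisons share no samples, and the call of each gene can be set side by side. Of the 34 ribosome biogenesis genes, 25 were higher in both, 7 were higher in Male and not called in KD, Npm1 was not called in Male and higher in KD, and Polr1c was lower in both. The Male against Female log2 fold change was above the KD against WT one for 30 of the 34. Kdm5d itself was higher in Male than Female and lower in KD than WT, so the 25 genes higher in both went with Kdm5d in one comparison and against it in the other. Of the 6 MYC network genes, Max and Mxd4 moved the same way in both, Mycn, Mxd1 and Mnt moved opposite ways, and Myc was not called in Male and higher in KD. The difference between the 2 comparisons was not tested.

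**Figure D4:**
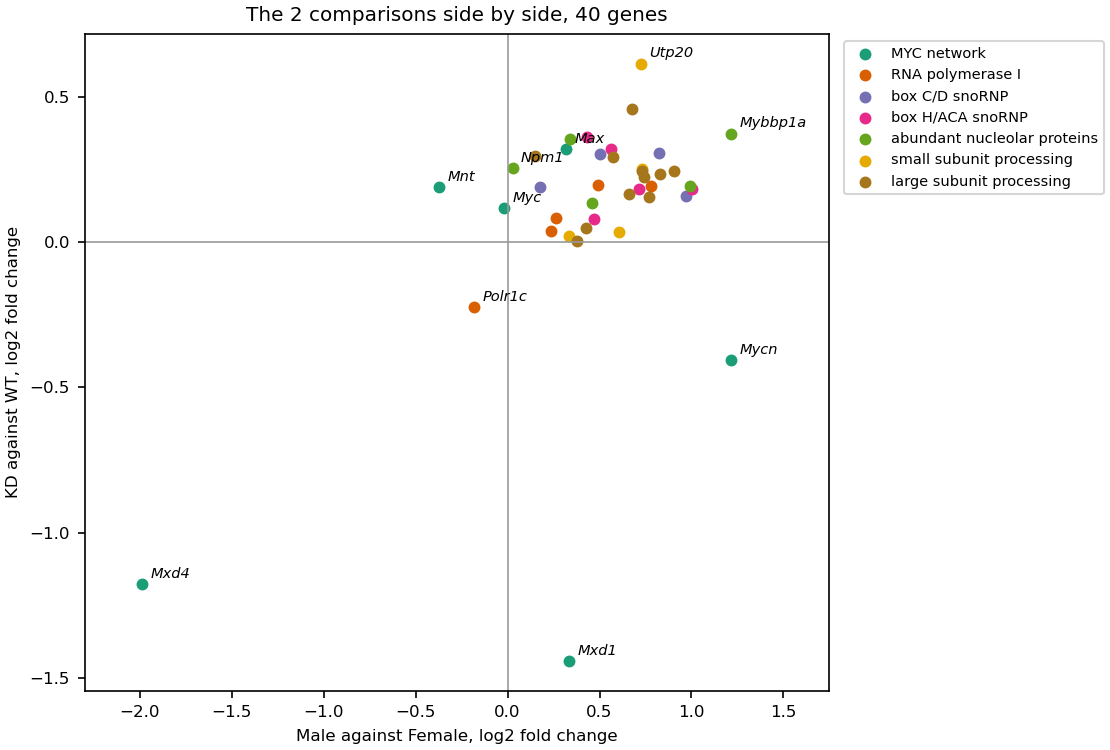
Log2 fold change of the 40 genes in Male against Female (horizontal) and in KD against WT (vertical), coloured by role, with 1 point per gene. Most ribosome biogenesis genes lie in the upper right, Polr1c and Mxd4 in the lower left, and Mycn and Mxd1 in the lower right.

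Other genes of the same pathways, listed from general knowledge of the pathways, were counted in the same fits. These lists, used here and in the paragraphs below, were made with earlier results of these data known. Their counts are thus not independent support. Of 97 further genes of ribosome production, 80 were higher and 6 lower in Male (median 0.39), and 45 were higher and 7 lower in KD (median 0.087). Over all tested genes the shares were 23.5% higher and 26.3% lower in Male and 16.8% higher and 18.4% lower in KD, and among genes as abundant as the members 35.4% and 41.6% in Male and 25.0% and 35.1% in KD. Small subunit processome genes had 35 of 40 higher and 1 lower in Male, and 19 higher and 2 lower in KD. The higher genes with the smallest p were Heatr1 (0.64) and Pdcd11 (0.59), both large processome proteins, in Male, and Nol6 (0.45) and Tbl3 (0.46) in KD, values being log2 fold changes. The lower ones were Ddx52 (-0.14 in Male, -0.30 in KD), an RNA helicase, and in KD also Nob1 (-0.13), the nuclease that makes the final 18S cut. Large subunit assembly genes had 39 of 46 higher and 4 lower in Male, and 24 higher and 3 lower in KD. Ddx24, an RNA helicase, was 0.91 in Male and -0.27 in KD, and Rrp1 was 0.92 in Male. Mdn1, the AAA-type ATPase of 60S remodelling (0.42), and Mrto4 (0.41) had the smallest p among the KD rises, and Senp3 (-0.12), a SUMO protease, was among the lower ones. Nvl (-0.34) and Nop53 (-0.19) were lower in Male.

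Of the 11 further RNA polymerase I genes, 6 were higher and 1 lower in Male (median 0.23), where 23.5% of tested genes were higher and 26.3% lower. In KD 2 were higher and 2 lower (median -0.015), near the 16.8% and 18.4% of all tested genes. For genes as abundant as the members the shares were 35.4% higher and 41.6% lower in Male, and 25.0% and 35.1% in KD. Cd3eap, a polymerase I subunit gene despite its name, rose in both (0.97 in Male, 0.37 in KD), and Polr1d, which pairs with Polr1c in polymerases I and III, rose in Male (0.45) and fell in KD (-0.20). Taf1b fell in Male (-0.13), and in KD Taf1c rose (0.20) and Ttf1, the termination factor, fell (-0.19).

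Of 8 further genes of the MYC and MLX network, 1 was higher and 4 were lower in Male (median -0.16), and 3 were higher and 2 lower in KD (median 0.017). Among genes as abundant as the members the shares were 35.4% higher and 41.6% lower in Male and 25.0% and 35.1% in KD, and with 8 genes nothing is read from these counts. Mxi1, another MAX-binding repressor, went from 65.3 ± 1.42 CPM (SD, n = 3) in Female to 37.1 ± 1.11 CPM in Male (edgeR log2 fold change -0.81, SE 0.033, adjusted p 1.68e-08) and rose in KD (0.13). Mlx, the partner of the glucose-sensing MLXIP proteins, rose in Male (0.62) and fell in KD (-0.18), and Mlxip fell in both (-0.13 in Male, -0.17 in KD). Mga, a MAX-binding repressor, fell in Male (-0.13) and rose in KD (0.35), and Mxd3, of the MXD family, rose in KD (0.57).

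Of 28 growth genes outside the nucleolus that are known to respond to MYC, 25 were higher and 1 lower in Male (median 0.51), and 20 were higher and 4 lower in KD (median 0.21). The shares of all tested genes were 23.5% higher and 26.3% lower in Male, and 16.8% higher and 18.4% lower in KD. For genes as abundant as the members they were 35.4% and 41.6% in Male, and 25.0% and 35.1% in KD. Tfrc, the transferrin receptor, rose in both, from 214 ± 1.62 CPM in Female to 381 ± 2.24 CPM in Male (SD, n = 3, edgeR log2 fold change 0.83, SE 0.018, adjusted p 2.46e-10) and from 621 ± 5.34 CPM in WT to 868 ± 13.6 CPM in KD (edgeR log2 fold change 0.48, SE 0.017, adjusted p 1.75e-08). Slc7a5, a transporter of large neutral amino acids, rose from 538 ± 7.33 CPM to 986 ± 5.74 CPM in Male (edgeR log2 fold change 0.87, SE 0.016, adjusted p 6.64e-11). It fell from 342 ± 1.50 CPM in WT to 258 ± 6.88 CPM in KD (edgeR log2 fold change -0.41, SE 0.022, adjusted p 3.99e-07), as did its heavy chain partner Slc3a2 (0.46 in Male, -0.34 in KD). Odc1 and Ccnd2 were the other 2 of the 4 lower in KD. Eif4a1, a translation initiation helicase, rose in Male (0.89), Mthfd1l, of mitochondrial folate metabolism, rose in KD (0.54), and Paics, of purine synthesis, was the 1 gene lower in Male (-0.067).

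**Figure D5:**
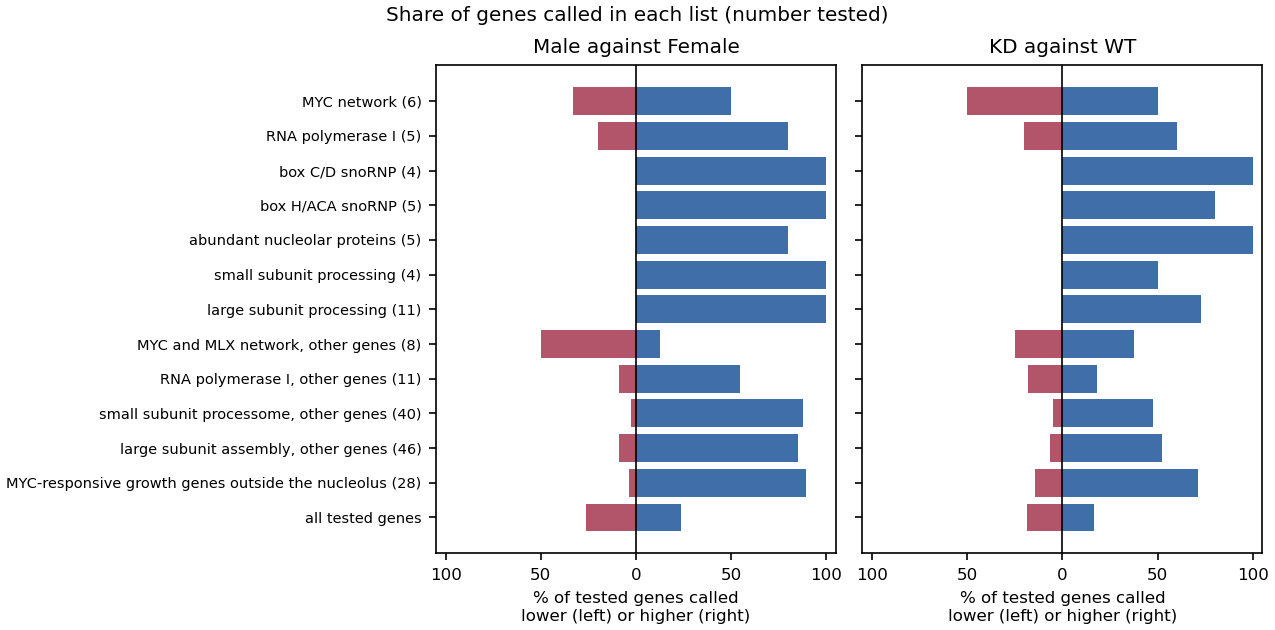
Share of tested genes called lower (left of 0) and higher (right of 0) in each role of the 40 genes, in the further lists and among all tested genes, with the number tested in brackets. Left panel: Male against Female. Right panel: KD against WT. All tested genes split nearly evenly, with 23.5% higher and 26.3% lower in Male, while 32 of the 34 ribosome biogenesis genes were higher there.

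Some members have counts that the authors' counting could have split. In 8 genes (Fbl, Nop56, Npm1, Pes1, Wdr12, Rrs1, Nip7 and Noc2l), over 10% of the 31-base stretches of the transcripts also occur in other genes, pseudogenes included, and exons of 14 of the 40 meet a gene on the opposite strand. The use of strand and of reads with several matches in counting is not given in the sources used here, so these values are uncertain. In a subset formed after seeing the data, of 17 ribosome biogenesis genes with neither limit, 16 were higher and 1 lower in Male (median 0.47), and 12 were higher, 1 lower and 4 not called in KD (median 0.19).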

How the data were processed

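RNA of 12 samples was sequenced. Per the labels' protocols, total RNA was depleted of ribosomal RNA and made into stranded libraries, so unspliced transcripts are also read. Counts per gene were deposited in 2 tables, one holding the sexes and the other the electroporated cells. The submitters' processing notes name bcl2fastq 2.20.0, HISAT2, StringTie, DESeq2 and the build mm10, with no role or order; the annotation, the use of strand and the treatment of reads with several matches are not given in the sources used here. The 260 of 55487 identifiers without a match in GENCODE M21 (GRCm38) stayed in the fits, and coordinates are from that annotation.

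Each table was fitted on its own 6 samples in R 4.3.3 with edgeR 4.0.16 (TMM, filterByExpr, quasi-likelihood test, Benjamini-Hochberg over all tested genes, called under an adjusted p of 0.05). An SE is the log2 estimate's size over the root of its F statistic, and no covariate was used. Totals were 85633225 to 96594439 counts in the first table and 78748647 to 110803318 in the second, and replicates correlated at 0.992 to 0.996 (Pearson, log2 CPM). Levels per kilobase used all annotated exons of a gene, except where the shortest principal transcript is named. The members and the gene lists were chosen with earlier results of these data known. Genes given with every sample's value were the MYC network and, in each other role, up to 3 genes called in both fits, ranked by the larger of their p-values, then the top 2 by p of each comparison; of the further lists, the top 2 called genes by p in either direction of each comparison were named. The genes of short lists, Npm1, the genes not called in KD and genes lower in the further lists were named as well, some after their values were seen. Alternatives were DESeq2 1.42.0, limma-voom (limma 3.58.1), other scalings and filters, a stricter threshold, thinned or divided counts, a joint fit, a replicate block and leaving out each library. The code was tested on simulated data.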

Additional observations from a re-analysis of the deposited data

How the results depend on the processing

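Each comparison was refitted under 12 other settings and with each of its 6 libraries left out. Over the settings, 38 to 39 members were called in Male against Female and 29 to 34 in KD against WT, with 3 and 4 lower in every run. Leaving out a library gave 38 in each Male against Female fit and 30 to 33 in KD against WT. Outside the MYC network, 32 to 33 genes were higher in Male and 24 to 27 in KD. The further pathway genes were the 97 of ribosome production, the 8 of the MYC and MLX network and the 28 growth genes. Of these, 109 to 118 were called in Male against Female and 64 to 86 in KD against WT. In the main fits 49.8% and 35.1% of all tested genes were called. For genes as abundant as the members the shares were 77.0% and 60.1%. These counts, taken over both directions, were not read as a result about the genes. With upper-quartile scaling the median log2 fold change of all tested genes in KD against WT was 0.043. In that fit 4002 genes were higher and 3279 lower, so the background leaned higher. In all these runs 38 of 40 members kept their direction and side of the threshold in Male against Female and 34 of 40 in KD against WT, and the exceptions follow. With genes kept at a mean log2 CPM of at least 1, the Male against Female estimate of Myc turned to 0.0075 and stayed uncalled, and Npm1 passed (0.055, edgeR adjusted p 0.0499). The uncalled Npm1 estimate ranged from -0.0010 to 0.036 on leaving out a library. In KD against WT the uncalled Wdr74 estimate turned to -0.011 with thinned counts and -0.00085 without the filter, and ranged from -0.0098 to 0.023 on leaving out a library. Nop16 passed with upper-quartile scaling (0.18, edgeR adjusted p 0.0497) and with the mean filter (0.17, 0.0474). Myc and Ubtf were lost in KD without the filter (edgeR adjusted p 0.106 and 0.0629), and at a threshold of 0.01 Mnt and Rrp9 were lost as well. The cause of these changes was not tested.

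The labels do not state that equal replicate numbers mark related samples, so the numbers were not used as pairs. Deviations from the group mean of same-numbered samples correlated on average at -0.010 in Male and Female and -0.079 in KD and WT. For samples of different number the averages were 0.0054 and 0.040. With 3 samples in a group these averages are tied to each other, so they cannot exclude shared mice or cultures. With the replicate block, 38 members were called in Male against Female and 31 in KD against WT. Outside the MYC network 32 and 25 genes were higher, 3 and 4 members were lower, and 116 and 78 further pathway genes were called. Over all genes the block fit called 9740 of 20208 in Male against Female and 6688 of 20413 in KD against WT. In that fit Myc (0.11, edgeR adjusted p 0.0774) and Ubtf (0.084, 0.0628) missed the threshold in KD against WT.

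The lowest count of a member in any library was 869, for Mycn, and each group had 3 samples. Levels are relative to the library, and RNA per cell was not measured.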

Other observations

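In GENCODE M21, 21 small nucleolar RNA genes lie within 7 of the members (Nop56, Nop58, Dkc1, Ncl, Gnl3, Wdr43 and Ppan), 12 overlapping a host exon and 9 in an intron. Of the 12, 10 held exactly 1 count in every sample, among them Snord57 in Nop56 and Snora75 in Ncl. The same value in every library may come from the counting and not from reads, so it is not taken as a level. How it arose was not tested. The other small nucleolar RNA genes held at most 115 counts. These tables thus carry little on the RNAs that the box C/D and box H/ACA proteins bind. The mRNAs of those proteins were well counted. At these low counts Snord70, Gm26287 and Snord53 were called higher in Male (edgeR adjusted p 0.0139, 0.0379 and 0.0317). Gm24451 was called higher in KD (edgeR adjusted p 0.0392).

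The rRNA-related gene CT010467.1 took between 0.0398% and 1.54% of the counts of a library and varied within groups, and it was not called in either comparison. The other rRNA-related symbols looked for (Gm42418, Gm26917, AY036118, Rn45s, Rn18s-rs5 and Rn28s1) had no match. CT010467.1 alone is thus not a full measure of rRNA reads. The identifier with the most counts in every library was ENSMUSG00000118642. It took 2.88% to 3.001% of the counts in WT samples and 3.18% to 3.43% in KD samples, without overlap. Female and Male samples overlapped, with at most 3.07%. Whether it is an rRNA-related gene was not tested.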
